A study of Mus musculus with 16 samples.

Results

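The libraries described here follow what 3 days in differentiation medium did to the microRNAs (miRNAs) of mouse myoblasts that lack both copies of miR-1a (miR-1a-1, miR-1a-2) as well as miR-206. They are 8 of the 16 small RNA libraries of the study, chosen by genotype and medium from the sample labels: 4 of the triple knockout (tKO) in growth medium (GM, 20% FBS) and 4 of the same cells 3 days after the serum was changed to 2% HS (DM3). All 16 libraries come from C2C12, an established line of mouse myoblasts that form multinucleate myotubes in low serum. The cells are described as PAX7 NEG, which the controls share. Each medium has knockout clones C1 and C2, each sampled as BR1 and BR2. A clone is 1 cell line, so the 4 libraries of a group hold 2 lines and not 4 independent knockouts. The other 8 libraries hold control populations 1 and 2 under the same media, again as BR1 and BR2. They were fitted together with the knockout libraries, and so also entered the filter, the scaling and the estimate of spread behind the knockout calls. Their own values are given only for comparison with the knockout. The labels do not say whether BR1 and BR2 were grown as separate cultures, so p-values measure the spread between these libraries.

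A miRNA is cut from a hairpin transcript as a pair of strands, the 5p and the 3p arm. A protein complex keeps mostly one of them and is led by its seed, bases 2 to 8, to messenger RNAs that it represses. Several hairpins often lie in one transcript and are made together. In muscle, miR-1, miR-206 and miR-133 are turned on as myoblasts leave the cell cycle and fuse. Each miR-133 hairpin lies close to a hairpin of the deleted family: miR-133b shares its locus with miR-206, and the miR-133a genes with the miR-1a genes.

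The sequences below are those on which the main contrasts turn. They are RefSeq mature sequences on GRCm38.p6, 5′ to 3′, with the seed in capitals. The first set holds miRNAs that rose in DM3 and, for miR-27b-3p and miR-24-1-5p, the product of the paralogous hairpin that did not. The paralogs share their seed and differ near the 3′ end, so only reads that reach the differing bases tell them apart.
miR-133b-3p: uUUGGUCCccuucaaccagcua
miR-675-3p: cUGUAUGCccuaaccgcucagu
miR-27b-3p: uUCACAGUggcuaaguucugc
miR-27a-3p: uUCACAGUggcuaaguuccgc
miR-24-1-5p: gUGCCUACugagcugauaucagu
miR-24-2-5p: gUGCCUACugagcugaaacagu
miR-322-3p: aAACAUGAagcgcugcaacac
miR-351-5p: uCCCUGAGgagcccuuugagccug
The second set holds miRNAs that fell, with paralogs or partners that share the seed. miR-351-5p of the first set has the seed of miR-125a-5p and miR-125b-5p of the second and moved the other way. miR-125b-2-3p is shown beside miR-125b-1-3p because both hairpins give the same 5p strand but different 3p strands.
miR-92a-3p: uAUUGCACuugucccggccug
miR-25-3p: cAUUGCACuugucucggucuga
miR-17-5p: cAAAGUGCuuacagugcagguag
miR-20a-5p: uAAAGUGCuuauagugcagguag
miR-221-3p: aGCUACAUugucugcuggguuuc
miR-222-3p: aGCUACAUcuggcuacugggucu
miR-125a-5p: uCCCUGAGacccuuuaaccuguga
miR-125b-5p: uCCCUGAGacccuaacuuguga
miR-125b-1-3p: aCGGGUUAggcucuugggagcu
miR-125b-2-3p: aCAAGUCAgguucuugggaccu
miR-99b-5p: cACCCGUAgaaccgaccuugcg
miR-100-5p: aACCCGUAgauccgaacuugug
let-7b-5p: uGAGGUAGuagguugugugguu
let-7b-3p: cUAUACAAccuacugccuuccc
miR-7a-5p: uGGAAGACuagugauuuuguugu

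The deleted miRNAs were checked first. In the order clone C1 BR1, C1 BR2, C2 BR1 and C2 BR2, which is kept throughout, miR-206-3p had 0, 7, 24 and 17 reads in tKO GM and 7, 1, 4 and 15 in tKO DM3, against 403 to 8837 in control GM and 4648 to 160083 in control DM3. miR-1a-3p had 0, 1, 0 and 0 reads in tKO GM and 0, 0, 0 and 0 in tKO DM3, against 5 to 143 in control DM3. Neither name passed the test in the knockout (miR-206-3p, log2 fold change -0.20 ± 1.09, adjusted p = 0.930; miR-1a-3p -1.52 ± 1.36, adjusted p = 0.438).

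Reads were kept when they were 18 to 25 nt long and matched a miRNA without mismatch, which left 1097935 to 5195966 reads in tKO GM and 66120.3 to 3951399 in tKO DM3. The library of clone C1 BR1 in DM3 stood apart: it had 66120.3 kept reads, 58.6% of its total against 81.4 to 88.7% in the other 7 knockout libraries, 18.9% of its reads were shorter than 18 nt, and 35.4% of all its reads were listed under miR-6240 and miR-6236. A floor of 3 reads is 45.4 CPM (counts scaled to one library total) in that library and 0.577 to 4.83 in the others, and covers counting error only. The kept share was 86.2% ± 3.26 (SD, n = 4) in GM and 78.5% ± 13.3 in DM3 (two-sided exact permutation test, p = 0.343; the smallest p that 4 against 4 allows is 0.0286). Results that rest on this library are given with and without it.

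Of 1502 miRNA names with kept reads, 503 had enough to be tested. In edgeR's quasi-likelihood test, 137 names (27.2%) passed an adjusted p of 0.05 between tKO DM3 and tKO GM, 66 higher (13.1%) and 71 lower (14.1%), and 131 names had no overlap between the 4 and the 4 libraries, 56 with DM3 above (11.1%) and 75 with DM3 below (14.9%). Values below are CPM of kept reads scaled by edgeR's TMM factors, differences are fitted log2 fold changes of DM3 over GM with their standard error (SE), and the median of all 503 names was -0.05. Scaled by total counts instead, the median was 0.12 and the split moved to 88 higher and 56 lower of 144. Without tKO DM3 C1 BR1, 123 names passed, 116 of them with the same direction as in the full set.

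miR-133a and miR-133b, muscle miRNAs known to act on the proliferation of myoblasts, were almost absent in GM and present in every DM3 library. No read of miR-133b-3p was found in any tKO GM library, and its scaled CPM in DM3 was 82.1, 23.5, 193 and 91.1. Over the whole groups its DM3 level was at least 241-fold higher than a floor of 3 reads in GM, in CPM without TMM factors, and at least 109-fold without the deep library tKO GM C2 BR2. Its hairpin (Mir133b, chr1:20682769-20682887, plus strand) lies downstream of the deleted miR-206 hairpin (Mir206, chr1:20679010-20679082, plus strand); in the GENCODE annotation both overlap an exon of the lincRNA Gm28653. Its rarer arm miR-133b-5p had 0, 0, 0 and 0 reads in GM and 0, 39, 16 and 80 in DM3. The 3p strands of miR-133a and miR-133b differ in their last base, and shorter reads match both. The name miR-133a-2-3p had 3, 3, 1 and 1 reads in GM and 29, 156, 455 and 896 in DM3, or 3.47, 1.74, 0.683 and 0.202 in GM and 397, 56.3, 645 and 235 in DM3 in CPM (8.20 ± 0.85, adjusted p = 3.56e-06). Of the DM3 reads listed under miR-133a names, 24, 136, 307 and 793 also lay in the miR-133b hairpin. The DM3 level of miR-133a-2-3p is therefore uncertain between the paralogs. The full-length sequence, miR-133a-3p, read 2.31, 0.580, 0.683 and 0.202 in GM and 41.0, 3.97, 68.0 and 7.33 in DM3 (5.19 ± 0.98, adjusted p = 0.000670). In all 3 names the DM3 values spread widely, clone C2 BR1 was highest, clone C1 BR2 was lowest, and no library of one medium overlapped the other. Without tKO DM3 C2 BR1 the change of miR-133a-2-3p was 7.55 and that of miR-133a-3p 3.45; without tKO GM C2 BR2 they were 7.44 and 4.49.

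The reference used held no miR-133a hairpin, so reads were assigned to miR-133a by their listed name. Among tKO DM3 reads of either 3p strand, 62.6, 58.5, 48.0 and 62.3% were listed under miR-133a but also lay in the miR-133b hairpin. Every read listed as miR-133b-3p was counted as miR-133b, whether or not it also fitted miR-133a. Of the reads left, those listed as miR-133b made up 44.2, 67.8, 41.0 and 72.7% in tKO DM3. In the 4 control DM3 libraries they made up 88.0 to 92.7%, so the knockout and control ranges of this share did not overlap. This share was looked at after the data were seen and was not tested. In tKO GM all 13 reads of the 4 libraries were listed under miR-133a and did not lie in the miR-133b hairpin.

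Of the 13 names on the list of muscle miRNAs, 8 were listed with kept reads and 6 were tested: 2 rose in the knockout, none fell and 4 did not pass. Besides the deleted pair these were miR-486a-5p (41.6 to 62.4, 0.43 ± 0.31, adjusted p = 0.338) and miR-486b-5p (172 to 193, 0.16 ± 0.31, adjusted p = 0.755), the miRNAs of the ankyrin gene Ank1. In the controls all 6 rose. The difference between the responses was -1.04 (95% interval -1.90 to -0.18) for miR-486a-5p and -1.04 (95% interval -1.91 to -0.17) for miR-486b-5p, and did not pass adjustment over all names for either. miR-499-5p, the miRNA of a slow myosin gene, stayed under the filter with 1, 5, 4 and 2 reads in GM and 0, 22, 6 and 24 in DM3.

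miR-675, cut from the imprinted non-coding RNA H19 (Mir675, chr7:142577064-142577147, minus strand, in an exon of H19), rose on both arms. miR-675-3p read 4.62, 11.01, 1.37 and 0.404 in GM and 397, 107, 86.4 and 72.8 in DM3 (5.16 ± 0.78, adjusted p = 9.64e-05). The highest value came from clone C1 BR1 in DM3, without which the change was 4.48 (adjusted p = 0.000106); it was 6.59 without tKO GM C1 BR2 and 4.57 without tKO GM C2 BR2. miR-675-5p read 5.78, 9.27, 0.683 and 1.21 in GM and 82.1, 31.0, 15.6 and 18.6 in DM3 (2.80 ± 0.70, adjusted p = 0.00576), and 3.75 without tKO GM C1 BR2; its direction turned when reads of all lengths with mismatches were counted (-1.07, adjusted p = 0.248). The 4 DM3 libraries lay above the 4 GM libraries on both arms.

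The miR-378 family, whose first member lies in a gene for a coactivator of mitochondrial genes, rose on 6 of the 7 names tested. miR-378a-3p read 7033, 6808, 7740.3 and 4847 in GM and 16879, 19619.7, 16209.7 and 14210.3 in DM3 (1.34 ± 0.20, adjusted p = 6.49e-05). The rarer arm, miR-378a-5p, read 119, 217, 154 and 127 in GM and 752, 593, 598 and 467 in DM3 (1.95 ± 0.27, adjusted p = 3.08e-05). Forms listed without the letter followed, miR-378-3p from 2054 ± 148 to 4838 ± 627 (SD, n = 4; 1.24 ± 0.20, adjusted p = 0.000108) and miR-378-5p from 281 ± 71.8 to 928 ± 198 (1.72 ± 0.25, adjusted p = 5.76e-05). miR-378b (2.02 ± 0.36, adjusted p = 0.000374) and miR-378c (1.14 ± 0.36, adjusted p = 0.0229) also rose, the call of miR-378c being lost in 4 of the 8 fits that left out 1 knockout library (tKO DM3 C1 BR2, DM3 C2 BR1 or either GM library of clone C2; adjusted p up to 0.0769). All 6 names had separate GM and DM3 ranges, but names of this family share most of their sequence and the split of reads among them is uncertain. The seventh, miR-378b-3p, did not pass (0.85 ± 0.41, adjusted p = 0.133). The 2 names of the miR-26 guide strands did not pass: miR-26a-5p went from 20806 to 23408 (0.17 ± 0.27, adjusted p = 0.692) and miR-26b-5p from 2392 to 2103 (-0.18 ± 0.38, adjusted p = 0.778).

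**Figure D1:**
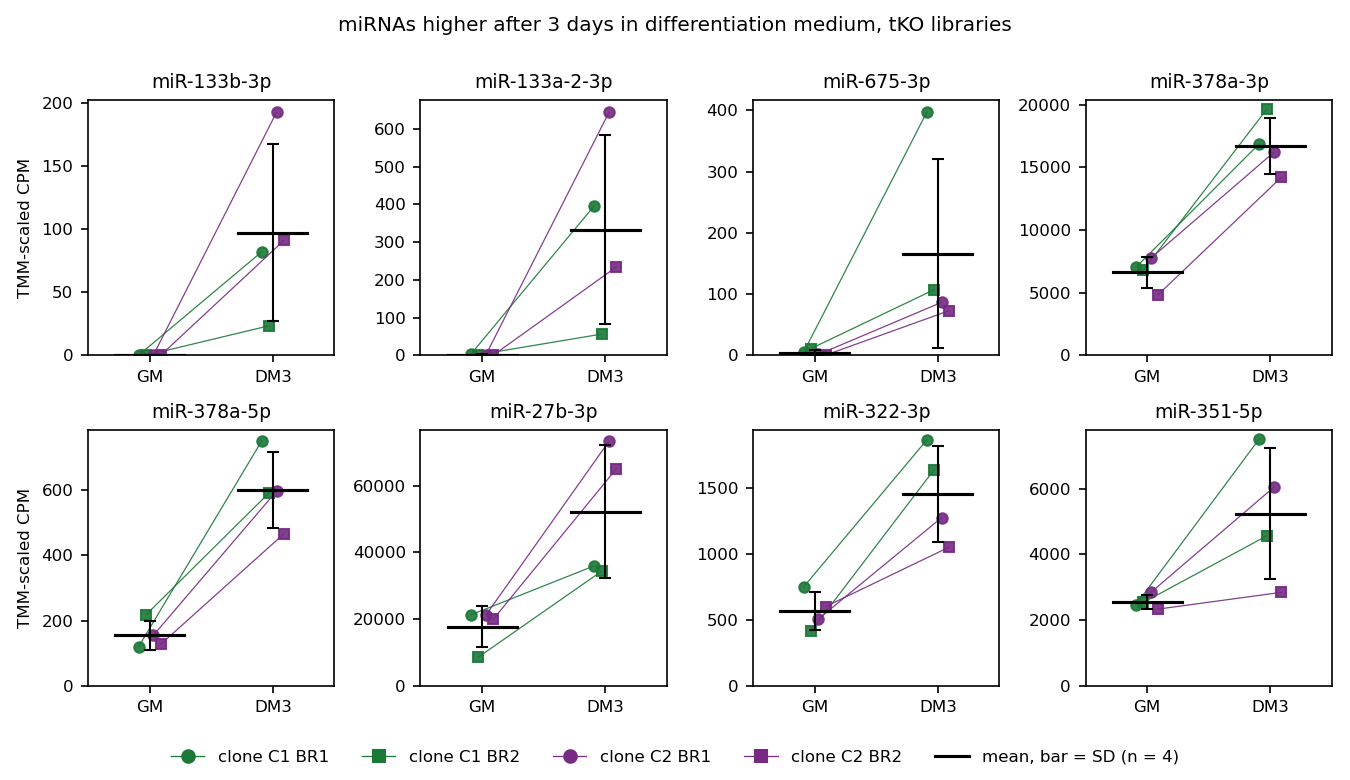
Scaled CPM (linear axis from 0) of 8 miRNA names in the tKO libraries in GM and DM3; points are libraries, joined by clone and BR number, black lines are means and bars SD (n = 4). miR-133b-3p and miR-133a-2-3p start near 0, clone C1 BR1 leads miR-675-3p, and clone C2 BR2 moves least for miR-351-5p.

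The paralogous clusters of miR-23, miR-27 and miR-24 set near-identical miRNAs side by side. Of the chromosome 13 cluster (Mir23b, Mir27b and Mir24-1, within the gene 2010111I01Rik), miR-27b-3p, miR-24-1-5p and miR-23b-3p rose, while the rarer arms miR-23b-5p (0.00 ± 0.38, adjusted p = 0.998) and miR-27b-5p (0.27 ± 0.35, adjusted p = 0.632) did not pass. Of the chromosome 8 cluster (Mir23a, Mir27a and Mir24-2), none rose. miR-27b-3p, among the most abundant miRNAs here, read 21241, 8555, 21115 and 19881 in GM and 35919.7, 34323, 73304 and 65081 in DM3 (1.56 ± 0.28, adjusted p = 0.000374). Its paralog miR-27a-3p, which shares the seed UCACAGU, went from 15887 ± 3579 to 16832 ± 5492 (0.08 ± 0.25, adjusted p = 0.854). The ratio of miR-27b-3p to miR-27a-3p was 0.797 to 1.30 over the 4 GM libraries and 2.02 to 4.06 over the 4 DM3 libraries. miR-24-1-5p read 21.95, 39.4, 25.95 and 34.3 in GM and 82.1, 64.9, 112 and 127 in DM3 (1.68 ± 0.30, adjusted p = 0.000374), whereas miR-24-2-5p went from 1764 to 1719 (-0.03 ± 0.24, adjusted p = 0.949); their ratio was 0.0129 to 0.0205 in GM and 0.0361 to 0.0634 in DM3. miR-23b-3p went from 3509 to 6020.2 (0.78 ± 0.25, adjusted p = 0.0262) with overlapping groups, and its call was lost in 5 of the 8 fits without 1 knockout library (adjusted p up to 0.114; it held without tKO GM C2 BR2 and without either DM3 library of clone C1). miR-23a-3p did not pass (-0.13 ± 0.22, adjusted p = 0.706). Neither did miR-24-3p, the strand that both clusters make alike (0.24 ± 0.23, adjusted p = 0.456). The ratios did not overlap between the media, though the differences between paralogs were not tested. Reads short enough to fit both paralogs made up 5.41 to 9.35% of the miR-27 reads in tKO DM3.

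The rarer arms of both miR-23a and miR-27a, on chromosome 8, fell. miR-23a-5p, which was chosen after its values were seen, read 15.0, 19.7, 14.3 and 24.03 in GM and 0, 5.77, 5.67 and 4.71 in DM3 (-1.84 ± 0.35, adjusted p = 0.000681). miR-27a-5p, the rarer arm of the miR-27a hairpin, read 1009, 1448, 733 and 1075 in GM and 82.1, 514, 203 and 360.5 in DM3 (-1.81 ± 0.39, adjusted p = 0.00164), so that both hairpins had one arm that fell and one that did not pass. The share of miR-27a reads on the 5p arm was 4.32 to 11.9% in GM and 0.855 to 2.94% in DM3.

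The X-linked cluster of miR-322, miR-503 and miR-351, known from quiescence and cell-cycle exit, gave 3 calls higher and none lower among 10 names tested, with a list median of 0.68. miR-322-3p read 746, 411, 504 and 599 in GM and 1860.3, 1636, 1272 and 1048 in DM3 (1.36 ± 0.28, adjusted p = 0.00125). miR-351-5p read 2467, 2532, 2836 and 2329.5 in GM and 7509, 4558, 6044 and 2839.7 in DM3 (1.04 ± 0.27, adjusted p = 0.00704; 0.81 (adjusted p = 0.0339) without clone C1 BR1), and was not called with no filter (adjusted p = 0.0871). miR-351-5p was highest in clone C1 BR1 and only just above GM in clone C2 BR2. The third call, miR-450a-5p, had overlapping groups (1.04 ± 0.37, adjusted p = 0.0446) and was lost in 6 of the 8 fits without 1 knockout library (adjusted p up to 0.126; it held without tKO DM3 C2 BR2 and without GM C1 BR1). miR-322-5p (1.002 ± 0.40, adjusted p = 0.0693), miR-503-3p (0.77 ± 0.30, adjusted p = 0.0586) and miR-503-5p (0.59 ± 0.45, adjusted p = 0.373) did not pass; the first was called higher in 6 of 30 other fits and the second in 5 of 30 other fits. In the seed group of miR-351-5p the partners moved the other way: miR-125b-5p and miR-125a-5p fell, the call of miR-125a-5p being lost in 22 of 30 other fits.

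Other names also rose by the naming rule. miR-344-3p read 67.0, 40.0, 37.6 and 58.0 in GM and 178, 173, 97.8 and 132 in DM3 (1.496 ± 0.31, adjusted p = 0.00136). miR-1981-3p (Mir1981, in an intron of Marc2) read 92.4, 97.4, 131 and 101 in GM and 205, 324, 351 and 505 in DM3 (1.74 ± 0.29, adjusted p = 0.000189). miR-6944-3p read 40.4, 48.7, 38.2 and 31.9 in GM and 54.7, 104, 154 and 162 in DM3 (1.65 ± 0.35, adjusted p = 0.00139). For these names each DM3 library exceeded each GM library, by less in clone C1 than in clone C2 for miR-6944-3p. miR-3102-3p went from 466 ± 83.8 to 1066 ± 169.8 (1.20 ± 0.29, adjusted p = 0.00455) and miR-582-3p from 49.9 ± 14.8 to 109.6 ± 12.5 (1.14 ± 0.31, adjusted p = 0.0111). The call of miR-582-3p was lost with no filter (adjusted p = 0.122) and with reads of all lengths and mismatches (0.30, adjusted p = 0.576). miR-6240-5p read 3.47, 12.7, 3.41 and 10.7 in GM and 561, 55.9, 41.1 and 17.01 in DM3 (3.95 ± 0.98, adjusted p = 0.00740); without clone C1 BR1 in DM3 its change was 2.20 (adjusted p = 0.00906), and with a term for each clone-and-BR pair it no longer passed (adjusted p = 0.0566). In all, its call was lost in 5 of 27 other fits, among them clone C2 alone, BR2 alone and names merged without tKO DM3 C1 BR1. Its smallest change over the other fits was 0.65. miR-6240 is a name of the pair, with miR-6236, that took 35.4% of all reads of tKO DM3 C1 BR1.

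Among the miRNAs that fell were members of the miR-17-92 cluster, known to drive proliferation, with miR-92a the most abundant of them. Of the 9 names of the cluster tested, 5 fell and none rose, with a list median of -1.01. The strand miR-92a-3p has 2 hairpins, Mir92-1 in this cluster and Mir92-2 on the X chromosome, and its reads sum both. Among the 7 names of the cluster with 1 genomic hairpin, 4 fell. miR-92a-3p read 15097, 15519.6, 14309 and 10269.8 in GM and 3762, 3029, 3282 and 2426 in DM3 (fitted log2 fold change -2.15 ± 0.26, adjusted p = 6.63e-06), so that the highest DM3 library was at 3762 CPM and the lowest GM library at 10269.8 CPM. Forms listed under the copy names followed: miR-92a-1-3p went from 4172 ± 986 to 983 ± 134 (-2.08 ± 0.28, adjusted p = 2.50e-05) and miR-92a-2-3p from 561 ± 89.8 to 120.1 ± 27.96 (-2.17 ± 0.30, adjusted p = 4.13e-05). miR-92a-1-5p, the rare arm of the hairpin at the end of the cluster, fell more, from 72.6 ± 31.8 to 5.93 ± 4.07 (-3.27 ± 0.48, adjusted p = 5.76e-05). miR-17-5p read 3506, 1913, 2584 and 2225 in GM and 1669, 888, 1523 and 926 in DM3 (-1.04 ± 0.27, adjusted p = 0.00752). Its seed partner miR-20a-5p went from 1753 ± 757 to 782 ± 195 (-1.17 ± 0.33, adjusted p = 0.0127). For both, all 4 clone-and-BR pairs were lower in DM3.

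Other names of the cluster were less firmly called or did not pass. miR-18a-3p was called (-0.95 ± 0.33, adjusted p = 0.0361), but not in 4 of the 8 fits without 1 knockout library (adjusted p up to 0.104; tKO GM C1 BR1, GM C2 BR1, DM3 C1 BR2 or DM3 C2 BR2 left out). miR-18a-5p (-1.01 ± 0.44, adjusted p = 0.0947), miR-19a-3p (-0.75 ± 0.51, adjusted p = 0.305), miR-19b-3p (-0.84 ± 0.48, adjusted p = 0.204) and miR-17-3p (-0.46 ± 0.31, adjusted p = 0.300) did not pass. The hairpins Mir17 (chr14:115043671-115043754, plus strand) and Mir92-1 (chr14:115044427-115044506, plus strand) both overlap an exon of Mir17hg, their host transcript.

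The related miR-106b-25 cluster, within the replication gene Mcm7, gave 3 calls lower and none higher among 6 names tested (median -0.69). miR-25-5p read 83.2, 104, 161 and 115 in GM and 0, 21.6, 29.8 and 28.01 in DM3 (-2.26 ± 0.41, adjusted p = 0.000374), while the main arm miR-25-3p, which has the seed of miR-92a-3p, went from 3189.9 ± 1147 to 1577 ± 389 (-1.01 ± 0.28, adjusted p = 0.0125). miR-106b-3p went from 1219.9 ± 271 to 619 ± 156 (-0.96 ± 0.26, adjusted p = 0.00929). Without tKO GM C2 BR1 the calls of miR-25-3p (adjusted p = 0.0848) and miR-106b-3p (adjusted p = 0.0638) were lost. miR-106b-5p (-0.26 ± 0.40, adjusted p = 0.680), miR-93-5p (-0.42 ± 0.35, adjusted p = 0.401) and miR-93-3p (-0.38 ± 0.33, adjusted p = 0.430) did not pass. Both arms of the miR-25 hairpin were lower, the rare 5p arm by more than the 3p arm.

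miR-221 and miR-222, which target the cell-cycle inhibitor Cdkn1b, fell on all 4 names. miR-222-3p read 12848, 23214, 22446 and 21241 in GM and 4541, 6108, 6955 and 8490.2 in DM3 (-1.61 ± 0.24, adjusted p = 6.20e-05). miR-221-3p, with the same seed, read 9849, 10838, 16413 and 15880.5 in GM and 4651, 4961, 6266 and 7087 in DM3 (-1.20 ± 0.25, adjusted p = 0.00114). Neither pair of ranges overlapped. The rare arms miR-222-5p (161 to 38.4, -1.90 ± 0.32, adjusted p = 0.000201) and miR-221-5p (259 to 102, -1.26 ± 0.28, adjusted p = 0.00235) fell as well. Together the 4 names held 23062 to 39266 CPM in GM and 9261 to 15778 CPM in DM3.

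miR-7a, made from several copies of its gene, fell on both of its names. miR-7a-5p read 4799.8, 1849, 1536 and 1154 in GM and 451, 780.4, 217 and 455 in DM3 (-2.29 ± 0.45, adjusted p = 0.000877), and -1.69 without tKO GM C1 BR1. The copy name miR-7a-2-5p read 19323, 7817, 6528 and 4605 in GM and 1245, 3082, 822 and 1768 in DM3 (-2.46 ± 0.48, adjusted p = 0.000988), and it belongs to the same mature strand. Every DM3 value of both names was below every GM value. With the names of 1 mature strand merged, miR-7a-5p changed by -2.46 (adjusted p = 0.000675).

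The miR-125, miR-99 and miR-100 families, which lie beside let-7 hairpins in small clusters, had 7 of 9 names tested lower and none higher (median -1.0001). miR-125b-5p, known to act on the growth factor gene Igf2, read 11082, 20234, 12573 and 17008 in GM and 5964, 4238, 6741 and 4729 in DM3 (-1.49 ± 0.22, adjusted p = 5.76e-05). The copy name miR-125b-1-5p went from 603 ± 192 to 178 ± 37.7 (-1.75 ± 0.27, adjusted p = 8.44e-05). The other copy name of this strand, miR-125b-2-5p, is larger, with 493475 kept reads over all 16 libraries against 16419 for miR-125b-1-5p. Its change is not given here. miR-125b-1-3p read 2943, 7664, 2455 and 4553 in GM and 519.8, 1128, 409 and 754 in DM3 (-2.63 ± 0.39, adjusted p = 6.49e-05), whereas miR-125b-2-3p from the other locus went from 51.8 to 67.7 and did not pass (0.56 ± 0.47, adjusted p = 0.407). The 3p strands come from different hairpins and are not ambiguous, while the shared 5p strand sums both. miR-125a-3p went from 392 ± 54.7 to 146 ± 42.9 (-1.38 ± 0.27, adjusted p = 0.000681) and miR-99b-3p from 3406 ± 503 to 1465 ± 420.3 (-1.21 ± 0.23, adjusted p = 0.000640). miR-100-5p went from 10353 ± 975 to 5169 ± 1084 (-1.0001 ± 0.21, adjusted p = 0.00146). The abundant miR-99b-5p went from 52932 ± 6374 to 32166 ± 6757 (-0.72 ± 0.22, adjusted p = 0.0181), a call that was lost without tKO DM3 C1 BR1 (adjusted p = 0.0606) and without tKO GM C2 BR1 (adjusted p = 0.0916). miR-125a-5p (-0.57 ± 0.21, adjusted p = 0.0453) lost its call in 6 of the 8 fits without 1 knockout library (adjusted p up to 0.169) and kept it without tKO DM3 C2 BR1 and without GM C1 BR1. Over all other fits it lost its call in 22 of 30, among them the DESeq2 test, DESeq2 size factors and total counts. miR-99a-5p did not pass (0.12 ± 0.42, adjusted p = 0.889).

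The let-7 family, abundant in differentiated cells, summed to 126704 to 225429.8 CPM over its 9 guide names in GM and 91424 to 153350.3 in DM3. Guides listed under copy names are not in these sums or in the values below. Among them are let-7c-2-5p (486628 kept reads over all 16 libraries), let-7a-2-5p (121433.5) and let-7f-1-5p (114364). Of the guides, 3 fell and none rose (median -0.53), but all 3 calls were lost with scaling by total counts. Over all other fits the calls of let-7a-5p, let-7b-5p and let-7e-5p were lost in 8, 18 and 14 of 30. let-7a-5p went from 12339 ± 1862 to 7993 ± 1096 (-0.63 ± 0.18, adjusted p = 0.0163; lost without tKO GM C2 BR1, adjusted p = 0.0724), let-7b-5p from 19114 ± 1682 to 12997 ± 1986 (-0.56 ± 0.20, adjusted p = 0.0446) and let-7e-5p from 6781 ± 1888 to 3669.7 ± 1162 (-0.88 ± 0.31, adjusted p = 0.0424). The calls of let-7b-5p and let-7e-5p were lost in 6 and 5 of the 8 fits without 1 knockout library (adjusted p up to 0.154 and 0.129). On the full set, that of let-7b-5p was also lost with the DESeq2 test, with DESeq2 size factors and with reads of 20 to 24 nt. let-7b-5p kept its call without tKO DM3 C2 BR1 and without GM C1 BR2. let-7e-5p kept it without DM3 C1 BR2, DM3 C2 BR2 and GM C1 BR2, and lost it with a term for each clone-and-BR pair (adjusted p = 0.0537). let-7i-5p, the most abundant guide, went from 51369 to 35621 and did not pass (-0.53 ± 0.48, adjusted p = 0.448). The passenger strand let-7b-3p fell clearly: it read 879, 1322, 924 and 703 in GM and 205, 364, 269 and 299 in DM3 (-1.72 ± 0.29, adjusted p = 0.000216). let-7e-3p was the other of 8 passengers that fell (-1.01 ± 0.27, adjusted p = 0.00956).

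**Figure D2:**
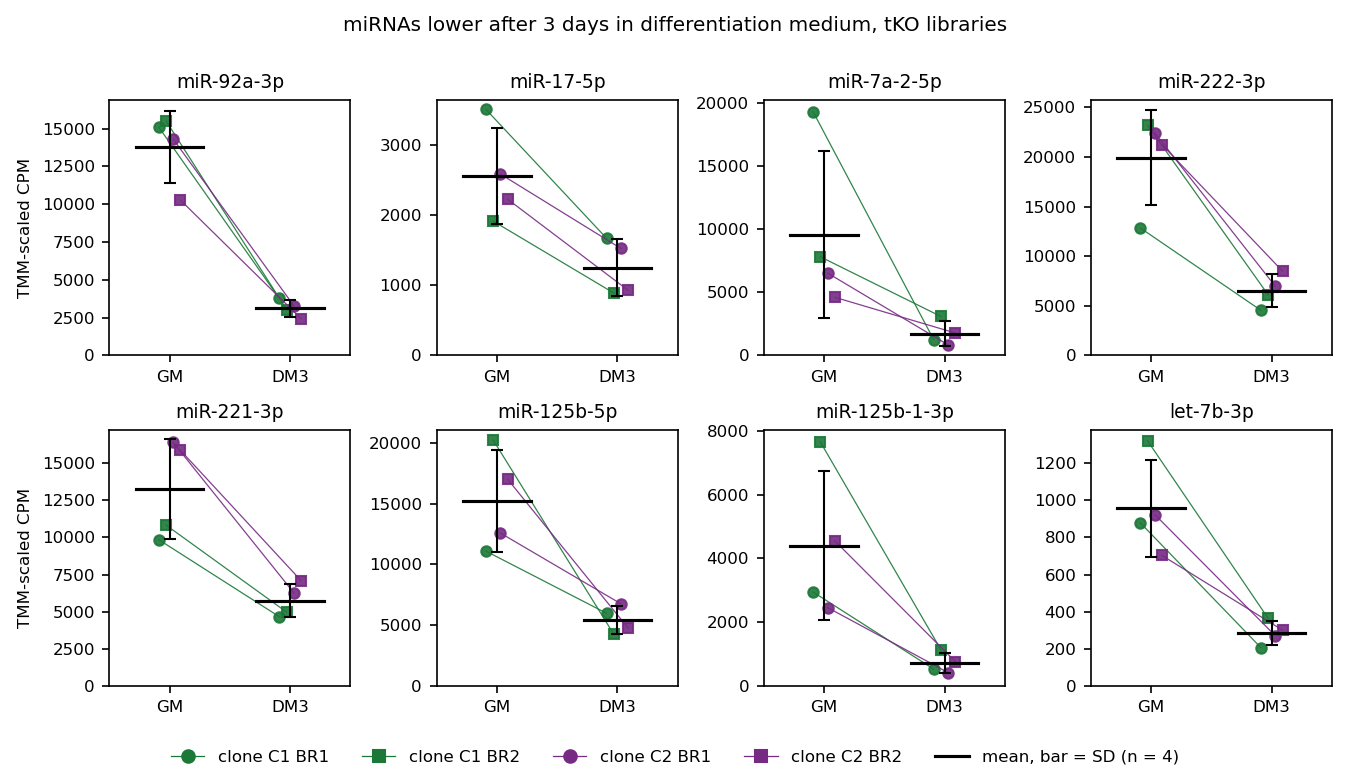
Scaled CPM (linear axis from 0) of 8 miRNA names in the tKO libraries in GM and DM3; points are libraries, joined by clone and BR number, black lines are means and bars SD (n = 4). Every DM3 point lies below every GM point, for example 2426 to 3762 CPM in DM3 against 10269.8 to 15519.6 CPM in GM for miR-92a-3p.

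The remaining names that fell by the naming rule included miR-365-2-5p, which read 133, 327, 135 and 147 in GM and 82.1, 63.5, 53.8 and 55.2 in DM3 (-1.61 ± 0.33, adjusted p = 0.00125), and miR-130b-5p, which read 675, 633, 707 and 359 in GM and 150.5, 245, 258 and 169 in DM3 (-1.500 ± 0.34, adjusted p = 0.00247). miR-1934-3p read 37.0, 310, 28.7 and 107 in GM and 0, 28.5, 5.67 and 17.8 in DM3 (-2.81 ± 0.71, adjusted p = 0.00712), with -1.77 without tKO GM C1 BR2, its highest library. Only 5.66% of its reads began at the start of the mature strand, so most reads under this name are not the mature strand. In the miR-30 family 2 of 9 names fell: miR-30c-2-3p (283 to 100, -1.39 ± 0.37, adjusted p = 0.00912) and miR-30b-3p (-1.03 ± 0.38, adjusted p = 0.0466), the latter lost in 7 of the 8 fits without 1 knockout library (adjusted p up to 0.125; it held without tKO DM3 C1 BR2). In the miR-29 family, known to act on collagens, 2 of the 5 listed names fell: miR-29a-5p (22.03 to 4.72, -1.74 ± 0.498, adjusted p = 0.0140) and the abundant miR-29a-3p (22282 to 15323, -0.54 ± 0.20, adjusted p = 0.0459), the latter lost in 7 of the 8 such fits (adjusted p up to 0.121; it held without tKO GM C1 BR1). Over all 8 tested names of this family 3 fell and none rose, the third being miR-29b-1-5p (-3.54 ± 0.47, adjusted p = 2.51e-05), the rare arm of a hairpin beside miR-29a; miR-29b-1-3p (0.09 ± 0.39, adjusted p = 0.915) and miR-29b-2-5p (0.57 ± 0.38, adjusted p = 0.304) did not pass. No main guide strand of the miR-30 family passed; miR-30d-5p, for example, went from 27576 to 21143 (-0.38 ± 0.20, adjusted p = 0.172), and miR-30e-5p from 1700.2 to 2746 (0.69 ± 0.29, adjusted p = 0.0845), which was called higher in 8 of 30 other fits.

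Several abundant families gave no call in either direction in the main fit of the knockout. Some of their names were called in other fits: miR-15b-5p in 3 of 30, miR-15b-3p in 2 of 30, miR-181c-3p in 1 of 27, and miR-10a-5p and miR-196a-5p in 1 of 30 each. Of the other names given below, miR-155-5p and miR-22-3p were called in 3 of 30 each, and miR-21a-5p and miR-31-5p in 1 of 30 each. None of the 6 names of the miR-15 and miR-16 family passed; miR-16-5p went from 315 to 228 (-0.45 ± 0.35, adjusted p = 0.379) and miR-15b-5p from 718 to 495 (-0.54 ± 0.25, adjusted p = 0.118). In the controls 3 of these 6 were called lower; the difference between the responses was 0.91 (95% interval -0.07 to 1.88) for miR-16-5p and did not pass (adjusted p = 0.880). None of 7 names of the miR-181 family passed, among them miR-181a-5p (981 to 1202, 0.30 ± 0.45, adjusted p = 0.671). None of 5 names of miR-199 and miR-214 passed, miR-199a-5p going from 9536 to 15622 (0.71 ± 0.27, adjusted p = 0.0584), though it was called higher in 11 of 30 other fits and miR-199b-5p in 4 of 29 other fits. None of 6 names from the Hox clusters passed, miR-10a-5p going from 9028 to 6072 (-0.57 ± 0.39, adjusted p = 0.304). Among 25 tested names of other miRNAs studied in myogenesis, the 2 arms of miR-675 rose and miR-7a-5p fell. The 22 others included miR-21a-5p (28615 to 20839, -0.46 ± 0.35, adjusted p = 0.373), miR-31-5p (8916 to 7312, -0.29 ± 0.20, adjusted p = 0.312), miR-155-5p (1398 to 789, -0.82 ± 0.37, adjusted p = 0.112) and miR-22-3p, which read 17589, 12843, 14100.4 and 21158 in GM and 24443, 21808, 22970.1 and 24531 in DM3 without passing (0.51 ± 0.29, adjusted p = 0.200). The values of miR-21a-5p are those of 1 listed form. Another name of the same strand, miR-21-5p, held 4398894 kept reads over all 16 libraries. With the names of 1 mature strand merged, miR-21a-5p changed by -0.88 and did not pass in edgeR (adjusted p = 0.108). None of the 37 names of the Dlk1-Dio3 cluster had enough reads to be tested. They summed to at most 15.5 CPM in any knockout library.

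Under the names on the lists, markers of other cell types were scarce. Some of these strands also appear under other names that the values below leave out. Over all 16 libraries these include miR-142-5p (13 kept reads), miR-142-3p (8) and miR-9-1-5p (1298). Blood cell markers summed to 2.73 to 12.7 CPM in GM and 0 to 2.88 in DM3, epithelial markers to 17.8 to 29.7 and 0 to 23.6, and neuronal markers to 2.31 to 6.95 and 0 to 10.7. miR-142a-5p, miR-144-3p, miR-124-3p and miR-126a-5p were at 0 in all 8 knockout libraries, and miR-142a-3p, miR-223-3p and miR-451a had 1 read each over the 8. The remaining blood marker, miR-150-5p, had 4, 21, 4 and 16 reads in GM and 0, 6, 1 and 10 in DM3. The liver and endothelium markers summed to 24.3 to 81.1 CPM in GM and 0 to 15.5 in DM3. Of these the endothelial miR-126a-3p had 3, 7, 15 and 21 reads in GM and 0, 17, 1 and 24 in DM3 and did not pass (-0.10 ± 0.51, adjusted p = 0.923). The liver miRNA miR-122-5p read 20.8, 77.1, 20.5 and 40.8 in GM and 0, 9.38, 0 and 4.19 in DM3 (-2.95 ± 0.63, adjusted p = 0.00164; -3.77 without tKO DM3 C1 BR2), and changed in the controls by -2.80 (adjusted p = 0.00704). The medium changes from 20% FBS to 2% HS along the same contrast, and its part in this or any other value was not tested. In bulk libraries, fewer cells of a type and less of a miRNA per cell cannot be told apart.

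Names were also grouped by position, joining hairpins within 10 kb on the same strand and counting names with 1 genomic hairpin. Of 24 such clusters with at least 3 names from at least 2 hairpins, 16 held a call; 7 of these held only calls higher, 9 only calls lower and none both. In 6 of the 16 the calls came from 1 hairpin, 4 of them with 1 call; the other 10 had calls on at least 2 hairpins. Under the other settings the count of clusters with calls in both directions was 0 or 1, the 1 arising with a term for clone and BR or for each clone-and-BR pair. The cluster with the most calls was a group of 12 hairpins from Mir743 to Mir470 on the X chromosome (chrX:66776757-66814025), known from testis, in which 7 of 20 names rose and none fell (median 1.22, range 0.72 to 1.88). All 7 overlapped between the media, the 2 of the 20 names that did not overlap were not called, and none passed in the controls (median 0.49). The cluster of miR-500, miR-501, miR-362, miR-188 and miR-532 (chrX:7237683-7248497) had 5 of 7 names higher (median 1.35), with 2 called in the controls (median 0.73). Of the names called in the knockout, miR-362-3p, miR-362-5p and miR-188-5p overlapped between the media. The cluster of miR-182, miR-96 and miR-183 (chr6:30165918-30169737) had 3 of 6 higher (median 0.56). These positions are on GRCm38.

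**Figure D3:**
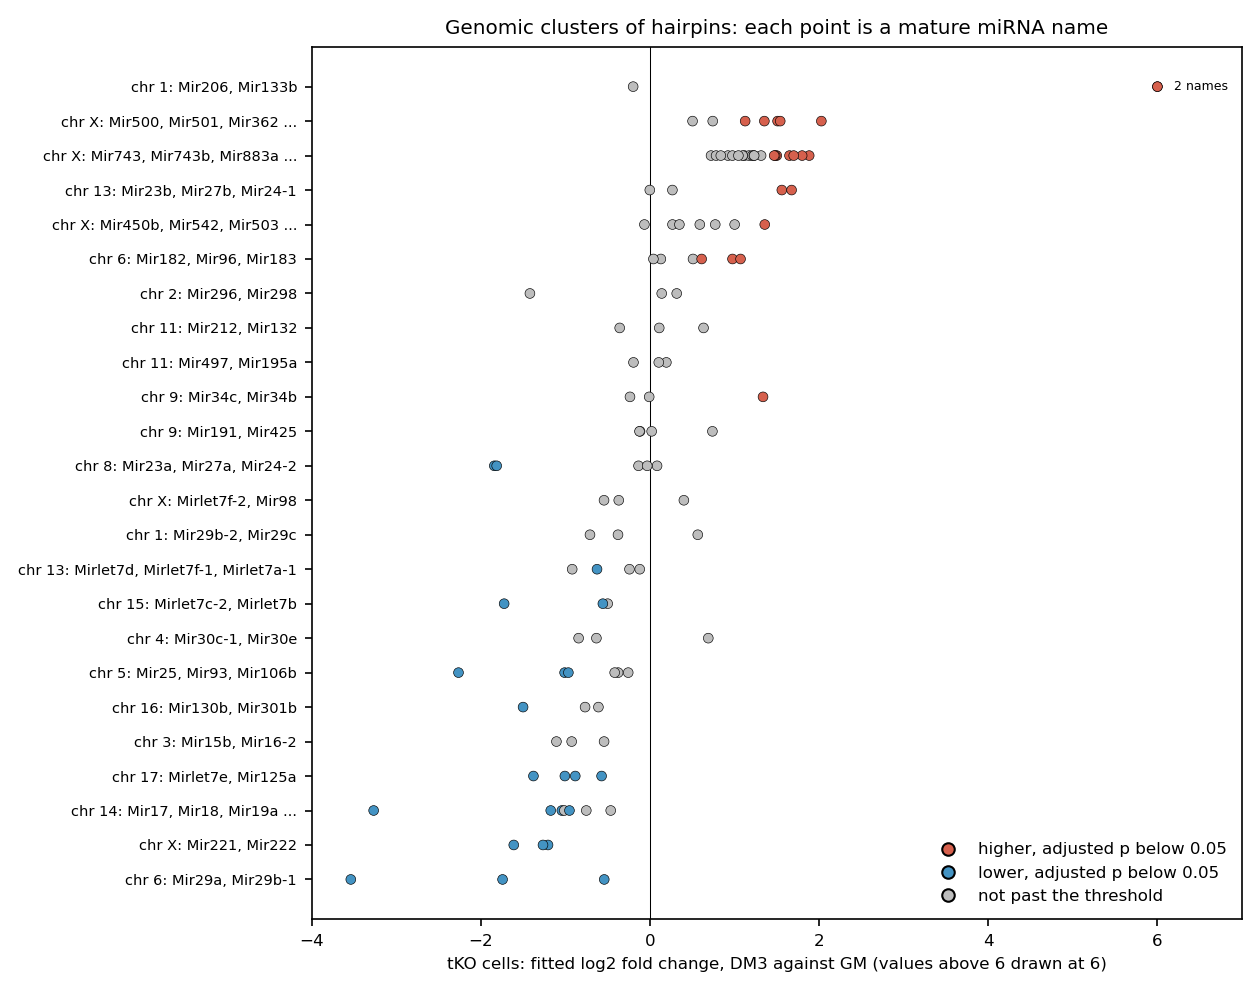
Fitted log2 fold change of DM3 over GM in tKO for each tested name of 24 genomic clusters of miRNA hairpins; each point is a name, red or blue where it passed the test and grey where not, and values above 6 are drawn at 6. Red and blue points never share a cluster, and the Mir743 row holds 7 red points of 20.

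The arms of single hairpins were compared in 77 hairpins with both arms tested, calling the arm with fewer reads the minor one. Its share of the reads of the hairpin had no overlap between media in 19 hairpins (24.7%), lower in DM3 in 12 and higher in 7. The change of the minor arm minus that of the major arm had a median of 0.00 over the 77 hairpins, with 38 below 0 and 39 above. miR-27a, miR-23a, miR-25 and let-7b were among those whose minor share was lower. In let-7b it was 3.66 to 6.85% in GM and 1.66 to 3.04% in DM3. miR-501 and miR-671 went the other way: miR-501-5p made up 0.987 to 1.68% in GM and 3.35 to 5.11% in DM3, and miR-671-5p 11.51 to 17.1% and 34.8 to 55.6%.

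Bases added after the genomic end of a miRNA, mostly U or A, are known to mark it for trimming or to shield it. The tables give reads with such an addition for each sequence, a measure the counts do not use. Over all kept reads the share was 25.8% ± 1.01 in GM and 27.9% ± 3.93 in DM3 (SD, n = 4; two-sided exact permutation test, p = 0.400). Without tKO DM3 C1 BR1, which was at 33.8%, the difference between the media went from 2.16 to 0.198 percentage points. Of 59 names with at least 200 reads in every knockout library, 21 (35.6%) had no overlap between the media, 19 with a lower and 2 with a higher share in DM3. In miR-23b-3p the share was 60.5, 67.2, 62.3 and 69.7% in GM and 39.2, 42.1, 41.2 and 46.1% in DM3, with means of 64.9 ± 4.26 and 42.2 ± 2.92% (SD, n = 4). In miR-21a-5p it was 65.9, 70.4, 62.3 and 67.1% in GM and 39.8, 60.3, 47.5 and 57.5% in DM3. In miR-148b-3p it was 58.0, 64.8, 57.2 and 63.4% in GM and 33.6, 54.2, 47.5 and 54.5% in DM3. miR-378a-3p went the other way, with 65.2, 62.7, 65.7 and 59.8% in GM and 72.7, 82.0, 72.6 and 80.6% in DM3, as did miR-6236-5p. The names miR-21a-5p and miR-378a-3p each stand for 1 listed sequence; for the other forms of these strands, listed as miR-21-5p and miR-378-3p, the mean share went from 13.7 to 9.93% with no overlap and from 82.3 to 88.1% with overlap. For miR-210-3p the mean share went from 86.0 to 76.5% for all additions while that of U additions went from 5.58 to 14.4%. These shares were not tested per name, and clone C1 BR1 in DM3, the shallow library, had the lowest value of the 8 in miR-23b-3p, miR-21a-5p and miR-148b-3p.

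**Figure D4:**
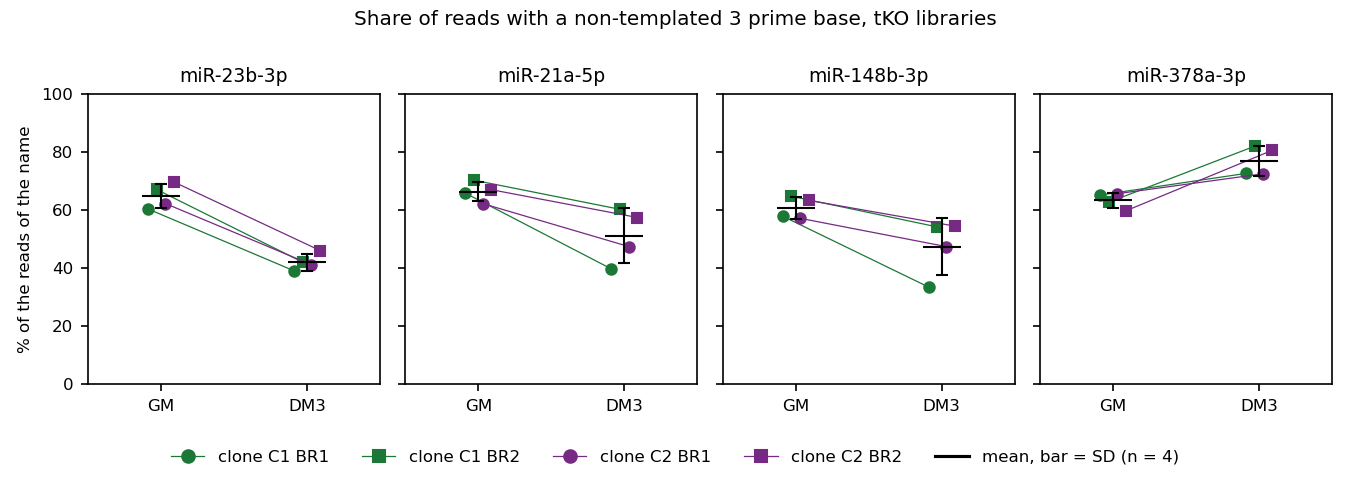
Percent of kept reads carrying a non-templated 3′ addition (axis in percent) for 4 miRNAs in the tKO libraries in GM and DM3; points are libraries, joined by clone and BR number, black lines are means and bars SD (n = 4). The share lies lower in every DM3 library for miR-23b-3p, miR-21a-5p and miR-148b-3p, and higher for miR-378a-3p; miR-21a-5p and miR-378a-3p are 1 sequence each.

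The knockout response was then set beside that of the control cells, which bears on whether lack of the miR-206 and miR-1a family changes the response to differentiation medium. In the controls 158 of 503 names (31.4%) passed, 78 higher and 80 lower. Of these, 100 also passed in the knockout, all 100 in the same direction, or 73.0% of the knockout calls and 63.3% of the control calls. The sets share no library but share 1 estimate of spread. A test of the difference between the responses called no name in edgeR (0.00%; 33 names at an unadjusted p under 0.05; smallest adjusted p 0.574) and none in DESeq2 (26 names). Intervals show what that leaves: the difference between knockout and control responses was 0.15 (95% interval -0.60 to 0.91) for miR-27b-3p, -0.06 (95% interval -0.74 to 0.62) for miR-92a-3p, 0.00 (95% interval -0.55 to 0.55) for miR-378a-3p and 0.11 (95% interval -2.08 to 2.31) for miR-675-3p. For miR-206-3p itself, which rose in the controls by 4.999 (adjusted p = 0.000335), the difference was -5.20 (95% interval -7.87 to -2.53) and its adjusted p 0.574. Without the shallow library tKO DM3 C1 BR1, in which 7 reads make 95.7 CPM, the difference for miR-206-3p was -6.07 and passed (adjusted p = 0.00325).

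**Figure D5:**
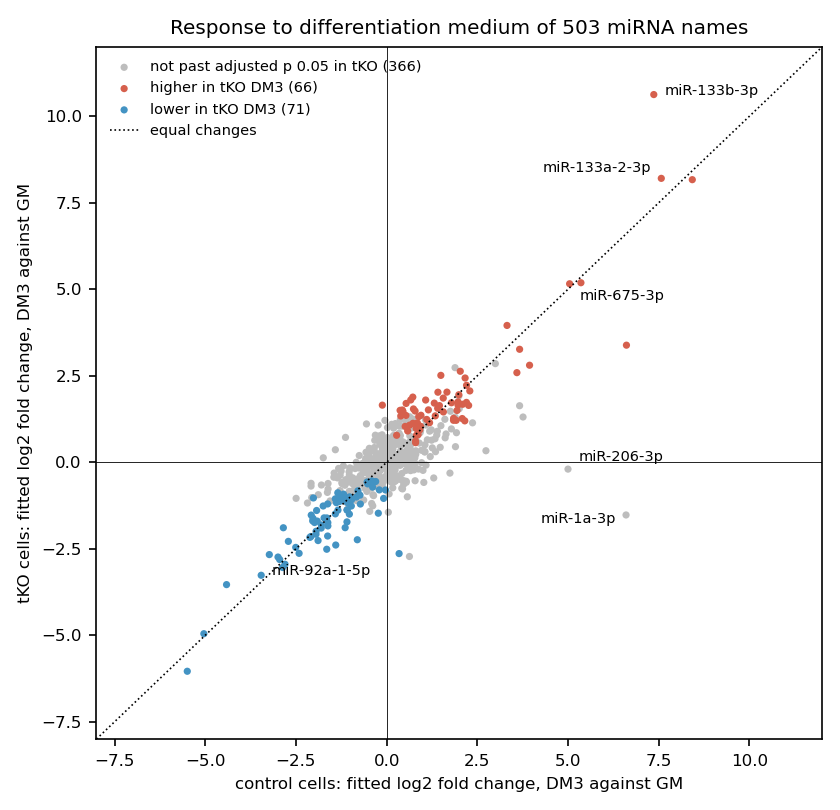
Fitted log2 fold change of DM3 over GM in control cells (x axis) and in tKO cells (y axis) for 503 miRNA names, the 137 called in tKO coloured; the fitted values of names with 0 reads in a group depend on the prior count. Called names lie on the same side of 0 on both axes with few exceptions, while miR-206-3p and miR-1a-3p, the deleted miRNAs, lie far right and at -0.20 and -1.52 on the tKO axis.

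The response was also compared between the 2 clones. The difference between clone responses called no name in the main edgeR fit (0.00%, 5 names at an unadjusted p under 0.05, smallest adjusted p 0.197). DESeq2 called 1, miR-146a-5p. The change of miR-27b-3p was 1.24 in clone C1 and 1.76 in clone C2, that of miR-92a-3p -2.18 in clone C1 and -2.11 in clone C2, that of miR-378a-3p 1.40 in clone C1 and 1.27 in clone C2 and that of miR-222-3p -1.76 in clone C1 and -1.500 in clone C2. Each clone and medium had 2 libraries, and the size of difference between clones that could pass was not measured.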

How the data were processed

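Small RNA libraries were made from total RNA, size-selected on a gel and sequenced. Per the submitters' processing notes, cutadapt 1.15 and STAR 2.5.4 were used with mm10. The deposited tables give, for each miRNA name and read sequence, an expected count of reads, in which reads that fit several names are split by the authors; the version of the annotation program is not given in the sources used here.

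Rows of 18 to 25 nt without a mismatch were summed per name and rounded. Copy names of 1 mature strand were kept apart, with merged values as an alternative. edgeR 4.0.16 (R 4.3.3) was fitted to all 16 libraries with 1 coefficient per group, filterByExpr (minimum count 10), TMM factors, robust quasi-likelihood and Benjamini-Hochberg adjustment at 0.05. Standard errors are the fold change divided by the root of F, and 95% intervals are 1.96 SE either way. DESeq2 1.42.0 was an alternative, as were other scalings, filters, lengths, blocks, single clones or BR numbers, thinning to the smallest library and leaving out each library. limma 3.58.1 was loaded with edgeR. On simulated counts for the 503 names, 40% of names changed by 1 on the log2 scale and 91% of those changed by 2 were called, with 4 of 303 unchanged names. The simulated counts were drawn independently for each library, without clone or BR effects. These rates therefore do not cover deviations that libraries of 1 clone share.

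Clones pair GM with DM3 by their labels. BR numbers did not: deviations from group means correlated at a mean of 0.24 over same-clone pairs of the same number and 0.25 over those of different numbers, across names. The main fit has no block.

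Named miRNAs were, per direction, up to 15 with the largest change among those that passed, had at least 100 CPM in a group, did not overlap and moved the same way in all 4 clone-and-BR pairs, plus members of fixed lists. Members and lists were chosen with earlier results of these data known. Clusters, arms and 3′ additions were added after the data were seen. Hairpin positions and sequences are RefSeq GRCm38.p6, and host genes are GENCODE vM21 annotation of the same assembly.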

Additional observations from a re-analysis of the deposited data

Results flagged for a closer look

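Single libraries stood apart from the other 3 of their group in several values, judged by the gap to the nearest library as a share of the group's range; chance alone does so in about 1 in 20 groups. In tKO DM3, clone C1 BR1 stood high for miR-675-3p (397 CPM) and miR-6240-5p (561 CPM), and clone C1 BR2 stood high for miR-378-3p (5777 CPM). In tKO GM, clone C1 BR2 stood low for miR-27b-3p (8555 CPM) and high for miR-378-5p (388 CPM) and miR-365-2-5p (327 CPM). The tKO DM3 library of clone C1 BR1 also stood apart in its share of kept reads (58.6%) and in its share of kept reads with a 3′ addition (33.8%).

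In reads that the comparisons do not use, those shorter than 18 nt, tKO DM3 clone C1 BR1 held 18.9% of its reads, above the highest control library at 12.8%. miR-22-3p was higher in DM3 in all 4 knockout pairs and lower in all 4 control pairs; the difference of the responses was 0.70 on the log2 scale and did not pass (unadjusted p = 0.102 and adjusted p = 0.880 in edgeR).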

How the results depend on the processing

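Of the 30 names chosen by the naming rule, 17 kept direction and call in every other fit that gave them a value (29 or 30 fits each), and none reversed; over all 30 names 862 of 891 alternative values kept both and 29 kept the direction only. Among list members, miR-675-5p reversed when reads of all lengths with mismatches were counted (-1.07, adjusted p = 0.248). The 137 calls in the knockout became 50 in clone C1 alone (28 higher, 22 lower), 76 in clone C2 alone (39 higher, 37 lower), 85 in BR1 alone (30 higher), and 61 with all libraries thinned to the smallest (31 higher, 30 lower), settings that use fewer libraries or reads; 103 were higher with all lengths and mismatches, and 41 were higher in a fit of the knockout libraries only. That fit of the knockout libraries only called 94 of 448 names in all, 53 of them lower. Leaving out 1 library gave 108 to 140 calls (48 to 73 higher, 52 to 69 lower). At least 10 CPM in 4 libraries gave 41.1% of calls higher against 48.2% here and 61.1% with total counts. The difference from the controls called 3 names without a filter, 1 in BR2 alone (miR-206-3p) and 1 with merged names and without tKO DM3 C1 BR1, and 0 to 1 with 1 library left out. The difference between clones called 1 (miR-146a-5p) in DESeq2, without a filter and with the replicate block, and 0 to 1 with 1 library left out. Merging copy names gave 127 calls of 464. Merging all names of 1 mature strand, a setting not planned beforehand, gave 115 calls of 447 (25.7%).

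With the replicate block 148 names were called, with the clone added to that block 188, and with each clone-and-BR pair as a block 175; among the names given in the report the last lost only miR-6240-5p and let-7e-5p. The numbers are not known to pair the samples, and a call lost under the block is no weaker effect. The difference in kept share was -7.64 percentage points (p = 0.500 when permuted within pairs, exact; -16.8 in BR1 and 1.53 in BR2), and -10.4 to -0.995 with 1 library left out. The difference in share with an addition was 2.16 (p = 0.625 within pairs, exact; 5.14 in BR1 and -0.829 in BR2), and 0.198 to 2.97 with 1 library left out; in both shares the value nearest 0 was without tKO DM3 C1 BR1. Each clone is 1 line, and the shallow library of clone C1 BR1 in DM3 limits names under its floor.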

Other observations

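Some of the larger changes fell on names that the naming rule did not reach, and these were chosen after their values were seen. miR-6539-5p read 47.4, 42.9, 64.9 and 37.6 in GM and 0, 1.08, 0 and 0.524 in DM3 in CPM (-6.04 ± 0.58, adjusted p = 1.32e-06), and -6.65 without tKO DM3 C1 BR2, against a change of -5.50 (adjusted p = 4.02e-06) in the controls, and no hairpin position was matched to it here. miR-29b-1-5p, the rare arm of a hairpin next to miR-29a, read 45.1, 55.1, 36.2 and 48.5 in GM and 0, 3.97, 1.42 and 5.24 in DM3 in CPM (-3.54 ± 0.47, adjusted p = 2.51e-05), against -4.41 (adjusted p = 1.09e-05) in the controls. The 3p strand miR-29b-3p did not pass (-0.90 ± 0.53, adjusted p = 0.220). miR-690-3p read 71.6, 95.6, 71.0 and 66.6 in GM and 889, 784, 85.0 and 187 in DM3 in CPM (2.63 ± 0.62, adjusted p = 0.00431); the 2 DM3 libraries of each clone lay above its 2 GM libraries, and a DM3 library of clone C2 lay below a GM library of clone C1. Its change was 3.31 in clone C1 and 0.99 in clone C2.

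miR-146a-5p, an inhibitor of inflammatory signalling, differed between clones already in GM. It read 6.93, 8.11, 273 and 234 in GM and 68.4, 190.1, 213 and 400 in DM3 in CPM (0.79 ± 0.88, adjusted p = 0.559). The 2 GM libraries of clone C1 were below all 6 others, and its change was 4.22 in clone C1 and 0.28 in clone C2. The difference between clones passed in DESeq2 (adjusted p = 0.00301) and not in the main edgeR fit (adjusted p = 0.197). In edgeR it passed with the replicate block (adjusted p = 0.0391) and with no filter (adjusted p = 0.00509).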
